A study of Mus musculus with 170 samples.

Results

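The genes of the integrated stress response described here were 10 of the 40549 genes in the deposited table of single-cell transcript levels. They were chosen by name, with earlier results of these data known, and were Atf4, Atf5, Ddit3, Asns, Trib3, Chac1, Sesn2, Psat1, Phgdh and Vldlr. No threshold on a measured value entered the choice, and each gene had 1 row in the table. All 10 were above a TPM of 0 in more than 10 cardiomyocyte-like (CM-like) cells, as were 15142 genes in all. TPM, a measure of transcript abundance, corrects each gene for its length and scales every cell to 1 total, and levels are given as log2(TPM + 1) unless TPM is named.

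The cells were picked by hand from the ventricular part of C57BL/6 mouse hearts at E9.5 and sequenced by Smart-seq2, which copies polyadenylated transcripts over their full length. Control cells, labelled wild type, were Dgcr8 loxP/loxP; ROSA26 mT/mG/+ and carried no Cre allele. The conditional knockout (cKO) cells carried Mesp1 Cre/+ together with Dgcr8 loxP/loxP and with ROSA26 mT/mG/+, so both genotypes shared the floxed alleles and the membrane reporter. Dgcr8 encodes the partner of Drosha that is needed to make most microRNAs, and Mesp1-driven Cre acts in early mesoderm that gives rise to the heart. The Cre therefore marks a lineage and not a cell type, and the authors had removed cKO cells whose reporter showed no recombination. Cells of each genotype came from 2 sequencing batches, as the labels call them, and the labels name no embryo or litter.

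The integrated stress response starts when a kinase phosphorylates the translation factor eIF2α, on unfolded protein in the endoplasmic reticulum, lack of amino acids, lack of heme or double-stranded RNA. General translation then slows while the mRNAs of Atf4 and of a few other factors are translated more, and ATF4 protein activates genes for amino acid synthesis and uptake, tRNA charging and redox balance. Because ATF4 is raised through translation, the level of its mRNA is only a part of its control. The mouse embryonic heart at this stage is rich in growing cardiomyocytes, in which mitochondrial defects are a known trigger of the response.

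A DNA element that ATF4 binds together with C/EBP proteins has the core TGATGNAA, and 4 members held it in the RefSeq promoter windows of the GRCm38.p6 build, from 250 bases before to 50 bases after a gene's start. Both strands were searched. Among all 27025 genes with a window, 4.51% held the core in at least 1 window, as did 3.97% of all 32851 windows. The 4 sites are shown because these members carry the levels described below. Each line runs 5′ to 3′ on the strand of the gene, with the core or its reverse complement in capitals.
Asns, chr6:7693214-7693243, minus strand: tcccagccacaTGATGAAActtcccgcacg
Trib3, chr2:152344028-152344057, minus strand: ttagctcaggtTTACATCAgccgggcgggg
Chac1, chr2:119351038-119351067, plus strand: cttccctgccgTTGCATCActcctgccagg
Vldlr, chr19:27216809-27216838, plus strand: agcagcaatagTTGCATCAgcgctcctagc

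Counted from the RefSeq start of the window, the core began at position −23 in Asns, −193 in Chac1, 15 in Trib3 and −200 in Vldlr, where it lay before the second of the starts. In the GENCODE vM21 annotation of the same build, the Asns and Trib3 stretches overlapped an exon's untranslated part, the Vldlr stretch an exon, and the Chac1 stretch no part of the gene. All 10 members had a window, 13 windows in all. By GENCODE vM21 the gene models of Asns (chromosome 6, 7675169 to 7693254), Trib3 (chromosome 2, 152337422 to 152344032), Chac1 (chromosome 2, 119351229 to 119354381) and Vldlr (chromosome 19, 27216484 to 27254231) code for proteins, as do those of Atf4 (chromosome 15, 80255184 to 80257541), Atf5 (chromosome 7, 44812256 to 44816658), Ddit3 (chromosome 10, 127290774 to 127296288), Sesn2 (chromosome 4, 132492032 to 132510501), Psat1 (chromosome 19, 15904678 to 15947337) and Phgdh (chromosome 3, 98313170 to 98339990). A match is a description of these letters and does not show binding, and the lack of one in the other 6 members says nothing of the factor.

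Clustering on 55 marker genes gave a CM-like class of 95 cells in which all 15 cardiomyocyte markers stood above the other cells. It held 19 control cells of batch 1 and 10 of batch 2, and 33 cKO cells of each batch. The other classes were endothelial-like (22 cells), epicardial-like (13 cells) and erythroid-like (3 cells), all of control, and an unnamed cluster of 10 cells led by mitochondrial transcripts. Each genotype counted as 1 sample, so no test was run between genotypes and an SD is the scatter across cells. Read depth is not kept by TPM, and the median number of detected genes in CM-like cells was 8458 and 9679 in control (batch 1 and batch 2) and 9845 and 7786 in cKO. The median share of mitochondrial transcripts was 6.30% in the 29 control and 2.95% in the 66 cKO CM-like cells. Xist, an RNA of female cells, reached a TPM of 1 in 63 of 66 cKO and 0 of 29 control CM-like cells (a count of 0 in 29 allows up to 10.3%). Ddx3y, a gene of the Y chromosome, did so in 0 of 66 and 19 of 29. Genotype and the sex shown by these transcripts therefore cannot be told apart in any difference between cKO and control cells. Dgcr8 itself averaged 2.58 in control and 2.38 in cKO cells of batch 1, and 2.69 and 1.00 in batch 2.

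Within batch 1, cKO CM-like cells held more of the stress response transcripts than control cells, and within batch 2 most did not. The mean of every member was above control in batch 1, with a median difference over the list of 1.82 log2 units against 0.17 over all genes. In batch 2, 4 of 10 were above control and the median difference was −0.36 against −0.19 over all genes. In batch 1, 8 members were at least 1 log2 unit higher in cKO, where 12.8% of all genes were. In batch 2 Atf5 and Vldlr were at least 1 log2 unit higher, where 5.35% of all genes were, and Ddit3, Trib3 and Sesn2 were at least 1 log2 unit lower, where 21.4% were. A call was set as at least 1 log2 unit in the same direction in both batches. Only Vldlr was called higher, 1 of 10 against 2.77% of all genes, and no member was called lower, against 2.69%. Averaged over the batches the median difference was 0.60, and 6 members had opposite signs in the batches. With the tree divided into 4 clusters, which gave 36 control and 69 cKO CM-like cells, Atf4 and Asns were called as well. In that setting 815 of 15317 genes were called higher, against 419 of 15142 in the main one.

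**Figure D1:**
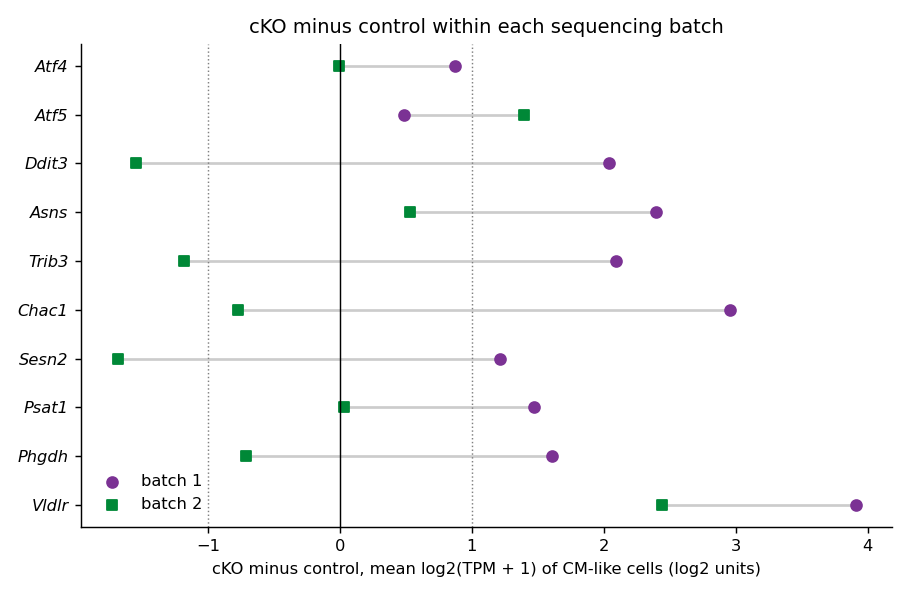
Difference in mean log2(TPM + 1) between cKO and control CM-like cells (x axis, log2 units) for each member, with circles for batch 1 and squares for batch 2; dotted lines mark 1 log2 unit in either direction. The circles of all 10 members lie above 0, while the squares of Atf4, Ddit3, Trib3, Chac1, Sesn2 and Phgdh lie below it, and only Vldlr lies beyond 1 in both batches.

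Among the regulators, Atf4, the transcription factor at the centre of the response, was the most abundant member in both genotypes. It was above a TPM of 0 in all 95 CM-like cells. In control cells its lowest, median and highest levels were 0.87, 6.14 and 8.49 in batch 1 and 5.66, 8.19 and 8.95 in batch 2. In cKO cells they were 0.26, 7.44 and 9.71 in batch 1 and 0.98, 8.25 and 10.85 in batch 2. The ranges overlapped throughout, and the difference of means was 0.87 in batch 1 and −0.01 in batch 2, smaller than the SD across cells of any group (1.13 to 2.32). Ddit3 encodes CHOP, a factor that couples prolonged stress to cell death. Its median was 1.33 in control and 6.30 in cKO cells of batch 1, but 6.83 in control and 6.46 in cKO cells of batch 2, with highest levels between 8.26 and 8.83 in all 4 groups. The means differed by 2.04 in batch 1 and by −1.55 in batch 2, against SDs of 2.53 to 3.24. Ddit3 overlaps Mars and Gm4189 and has 2 gene models in the annotation, so the assignment of its reads was less certain.

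Atf5, a related factor whose translation is also raised by the response and which is tied to stress of the mitochondria, had the lowest mean of the members in each cKO batch and in control cells of batch 2, while in control cells of batch 1 its mean of 0.23 was above those of Trib3 (0.16) and Chac1 (0.18). It reached a TPM of 1 in 1 of 19 control cells of batch 1 and in 0 of 10 of batch 2, where a count of 0 allows up to 30%. Among cKO cells it did so in 6 of 33 cells of batch 1 and 14 of 33 of batch 2 (42.4%, exact 95% interval 25.5 to 60.8). The highest level was 2.31 in control and 5.64 in cKO cells. Atf5 was the only member whose difference, taken with its sign, was larger in batch 2 (1.40) than in batch 1 (0.48). The annotated gene overlaps Il4i1 and Nup62, and which of these its reads came from was less certain.

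The feedback and effector genes were on in some cells and nearly silent in the rest. Trib3 encodes a pseudokinase that binds ATF4 and CHOP and restrains them. In control cells of batch 1 it never exceeded 1.25, whereas in control cells of batch 2 its lowest, median and highest levels were 0.00, 6.74 and 8.16. The cKO medians were 0.51 in batch 1 and 5.08 in batch 2, with highest levels of 8.22 and 9.12. Cells with a TPM of at least 10 numbered 0 of 19 and 7 of 10 in control, and 9 of 33 and 19 of 33 in cKO. The means differed by 2.09 in batch 1 and by −1.18 in batch 2.

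Chac1, an enzyme that degrades glutathione, showed the same division of cells. In control cells of batch 1 its highest level was 0.88 and 0 of 19 cells reached a TPM of 1, where a count of 0 allows up to 15.8%. In control cells of batch 2, 5 of 10 did, and in each cKO batch 15 of 33 did (45.5%, exact 95% interval 28.1 to 63.6). Of the 30 cKO cells at a TPM of at least 1, 29 were also at a TPM of at least 10, so few cells lay at intermediate levels. The means differed by 2.95 in batch 1 and by −0.77 in batch 2. Sesn2 encodes a leucine-binding inhibitor of mTORC1. Its median was 0.00 in control cells of batch 1, where 1 of 19 cells reached a TPM of 1 at a level of 5.04, and 5.62 in control cells of batch 2, where 9 of 10 did. In cKO cells 10 of 33 and 19 of 33 reached a TPM of 1, and the difference was 1.22 in batch 1 and −1.68 in batch 2.

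**Figure D2:**
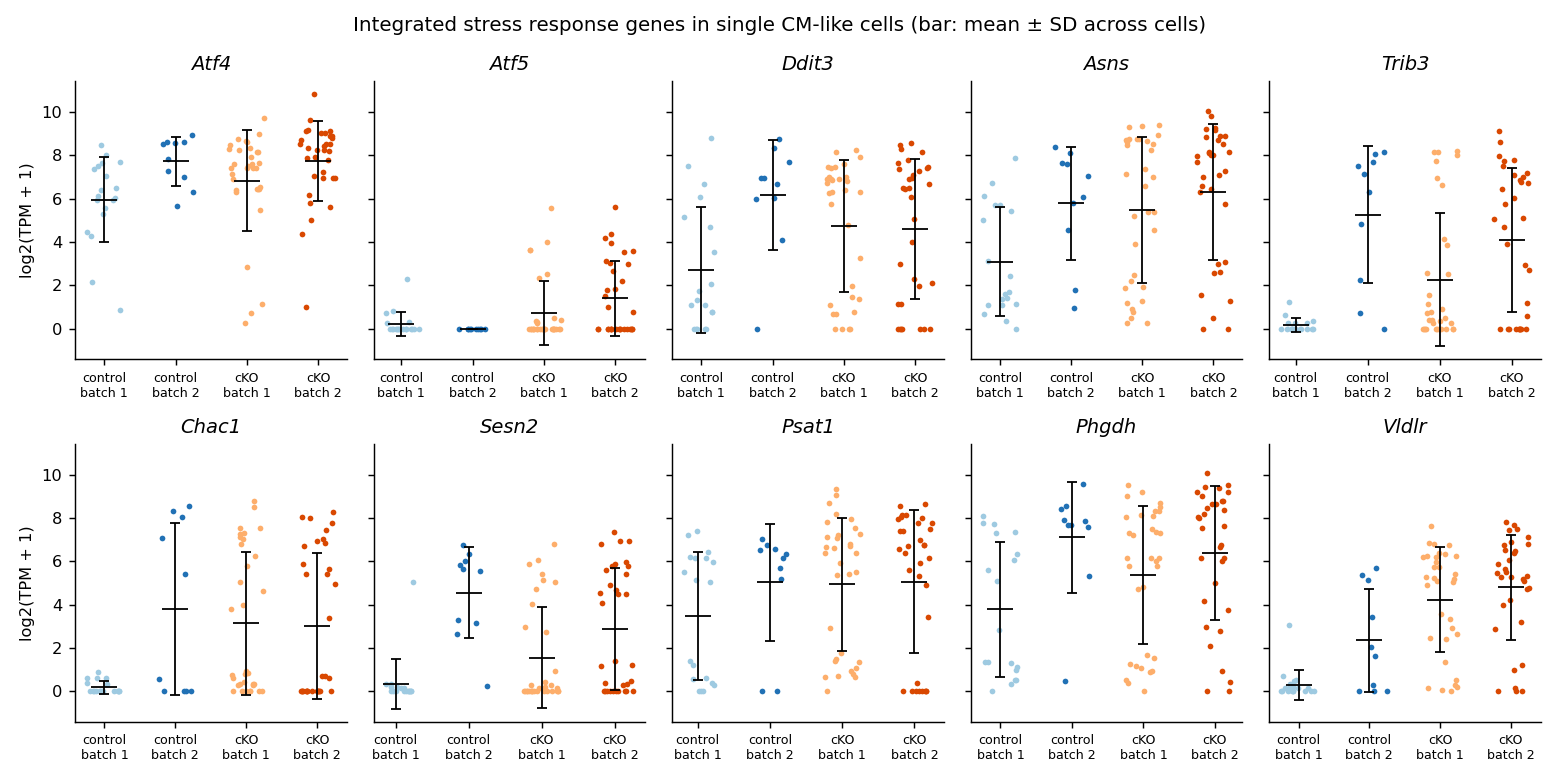
Level of each member, log2(TPM + 1), in every CM-like cell by genotype and sequencing batch, with bars for the mean ± SD across cells. Trib3, Chac1, Sesn2 and Vldlr are near 0 in nearly all of the 19 control cells of batch 1 but not in control cells of batch 2, and in both cKO batches their values run from 0 to at least 6.80.

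The amino acid enzymes were expressed in most cells of both genotypes. Asns makes asparagine from aspartate and glutamine. Its lowest, median and highest levels in control cells were 0.00, 1.70 and 7.88 in batch 1 and 0.95, 6.57 and 8.39 in batch 2. In cKO cells they were 0.25, 6.60 and 9.39 in batch 1 and 0.00, 7.71 and 10.06 in batch 2. The cKO medians were the higher ones in each batch, and the difference of means was 2.39 in batch 1 and 0.53 in batch 2, with SDs of 2.51 to 3.37. Phgdh catalyses the first step of serine synthesis from a glycolytic intermediate. Its median was 2.84 in control and 6.15 in cKO cells of batch 1, and 7.77 and 7.64 in batch 2, for differences of means of 1.61 and −0.71. Psat1, which carries out the next step, had medians of 5.03 and 6.39 in batch 1 and 6.25 and 6.56 in batch 2, for differences of means of 1.47 and 0.03. The annotated Psat1 overlaps the gene model Gm3329.

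Vldlr, a lipoprotein receptor that takes up triglyceride-rich particles and is known as a target of both ATF4 and hypoxia-inducible factors, separated the genotypes in each batch. In control cells of batch 1 its lowest, median and highest levels were 0.00, 0.15 and 3.05, and in cKO cells of batch 1 they were 0.00, 5.21 and 7.62. In batch 2 they were 0.00, 1.85 and 5.70 in control and 0.00, 5.32 and 7.80 in cKO cells. The groups overlapped, since 1 of 33 cKO cells was at 0 in batch 1 and 3 of 33 were in batch 2. A TPM of at least 1 was reached in batch 1 by 5.26% of 19 control cells (exact 95% interval 0.133 to 26) and by 81.8% of 33 cKO cells (64.5 to 93.0). In batch 2 it was reached by 60% of 10 control cells (26.2 to 87.8) and by 84.8% of 33 cKO cells (68.1 to 94.9), and these intervals, which cover counting error only, overlapped. The difference of means was 3.91 in batch 1 and 2.44 in batch 2, with SDs of 0.69 to 2.43.

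Since TPM is corrected for gene length, the levels of the members can be ordered within a genotype. In the 66 cKO CM-like cells the mean level was 7.28 for Atf4, 5.90 for Asns, 5.89 for Phgdh, 5.00 for Psat1, 4.68 for Ddit3, 4.51 for Vldlr, 3.17 for Trib3, 3.08 for Chac1, 2.22 for Sesn2 and 1.06 for Atf5. In the 29 control cells the order began with Atf4 (6.57), Phgdh (4.93) and Asns (4.02) and ended with Chac1 (1.43), Vldlr (1.02) and Atf5 (0.15). The control order pools batches of unequal size, 19 and 10 cells, and the cKO order 33 cells of each batch. Counted from 1 for the highest, Vldlr ranked 6 in cKO and 9 in control cells, and within batch 1 and batch 2 it ranked 6 and 5 in cKO and 7 and 9 in control cells. The control order changed between batches, where Trib3 ranked 10 and 5 and Psat1 3 and 6, while Atf4 ranked 1 and Phgdh 2 in both. Neighbours in either order differed by less than the larger of their SDs across cells, which in cKO were 1.63 to 3.31.

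The level of most members in control cells was tied to the batch. This comparison was chosen after the values above were seen. Between control CM-like cells, 9 of 10 members were at least 1 log2 unit higher in batch 2 than in batch 1, as were 25% of all genes, and the median difference was 3.02 against 0.37 over all genes. It was largest for Trib3 (5.11), Sesn2 (4.22) and Chac1 (3.61) and smallest for Psat1 (1.57) and Atf5 (−0.23). Between cKO CM-like cells of the batches, 3 of 10 members (Trib3, Sesn2 and Phgdh) were at least 1 log2 unit higher in batch 2, as were 2.72% of all genes, and the median difference was 0.77 against −0.05.

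The 10 control CM-like cells of batch 2 were not uniform in other respects. The erythroid markers averaged between 0.00 and 8.32 in them, against 0.00 to 1.27 in control cells of batch 1 and 0.00 to 3.16 in cKO cells of batch 2. The median difference between control batches was 3.95 over the 4 erythroid markers that passed the filter (Hba-x, Hbb-y, Hbb-bh1 and Hba-a1). In 2 of the 10 cells the erythroid markers averaged 8.32 and 7.90, and in 1 other the epicardial markers averaged 5.00. Without these 3 cells, 9 of 10 members were still at least 1 log2 unit higher in control cells of batch 2 than of batch 1, the median difference was 2.83, and the median of cKO minus control in batch 2 was −0.19. In 1 more cell 3805 genes were detected and the members averaged 0.87. Without it the median of cKO minus control in batch 2 was −0.86. Of the 9 immediate early genes, which respond to dissociation, 4 were at least 1 log2 unit higher and 2 at least 1 lower in batch 2 than in batch 1 among control cells, and 8 were higher and 0 lower among cKO cells, where 25% and 2.72% of all genes were higher by that much. The part of these features in the levels of the members was not tested.

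The other control classes gave a mixed picture between batches. The mean of the 10 members in a cell had medians of 1.95 and 5.25 in control CM-like cells of batch 1 and batch 2, and 3.82 and 5.11 in cKO cells. In endothelial-like cells the medians were 2.91 (7 cells) and 3.70 (15 cells). There Asns and Sesn2, 2 of 10 members, were at least 1 log2 unit higher in batch 2, and the median difference of the members was 0.03. Of the 8886 genes above 0 in more than 10 of these cells 10.8% were, and 8 of the members passed that filter. In epicardial-like cells, with 4 and 9 cells, 7 of 10 members were at least 1 log2 unit higher in batch 2, where 27% of genes above 0 in more than 5 of these cells were, and the median difference was 1.97 against 0.25. In 1 of the 4 cells mitochondrial transcripts made up 17.9% and no member reached a TPM of 1. Without it, a choice made after seeing the data, 5 of 10 members were at least 1 log2 unit higher against 18.9% of genes, and the median difference was 1.18 against −0.07. Both epicardial-like counts took in all 10 members, although only 7 passed the filter set on the genes. Vldlr averaged 0.44 and 0.41 in endothelial-like cells and 2.24 and 0.33 in epicardial-like cells.

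**Figure D3:**
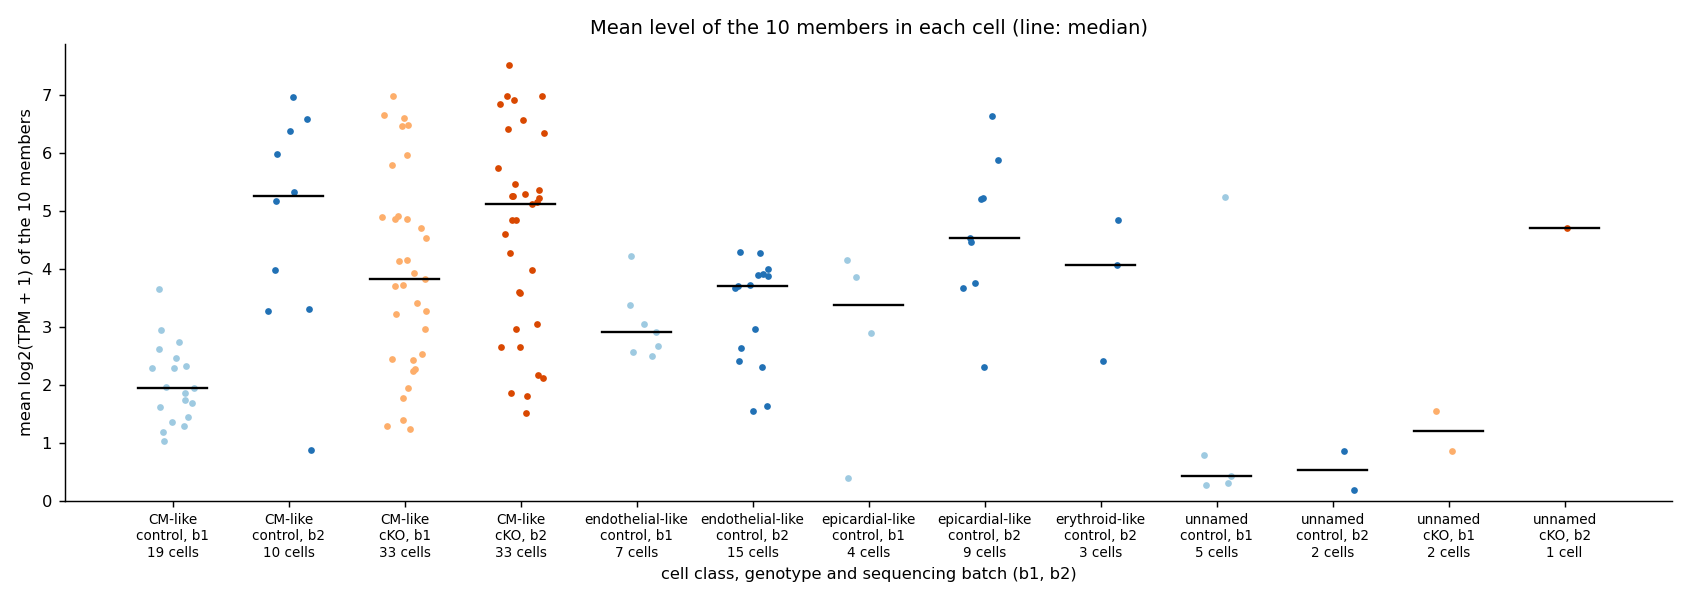
Mean log2(TPM + 1) of the 10 members in each cell (y axis) by cell class, genotype and sequencing batch (x axis), with a line at the median. The control CM-like cells of batch 1 lie between 1.02 and 3.65, those of batch 2 between 0.87 and 6.97, and cKO CM-like cells between 1.24 and 7.51.

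Upstream of Atf4, the genes for the kinases and phosphatase subunits of eIF2α gave no call. The kinases Eif2ak1 (heme), Eif2ak2 (double-stranded RNA), Eif2ak3 (endoplasmic reticulum) and Eif2ak4 (amino acids) had mean levels of at most 3.18 in any group. Their differences were 0.95, 0.75, 0.62 and 0.71 in batch 1 and −1.46, 0.97, 0.82 and 0.33 in batch 2. Ppp1r15a, the stress-induced subunit that returns eIF2α to its active state, averaged 3.03 in control and 3.61 in cKO cells of batch 1 but 7.70 and 4.78 in batch 2. Like Ddit3 it was lower in cKO cells of batch 2, with a difference of −2.93, but in batch 1 it differed by only 0.58, against 2.04 for Ddit3. Ppp1r15b, the constitutive subunit, differed by 1.28 and −1.46. Of all 14 genes of eIF2 signalling, 0 were called higher and 2 lower, Eif2b2 (−1.43 and −1.30) and Eif2b4 (−1.14 and −2.07), subunits of the exchange factor that recharges eIF2. The background was as above, 2.77% and 2.69% of all genes, here and for the calls in each list that follows.

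Of the other transcription factors of the response, none of 8 was called. Atf3 (1.94 and 0.98) and Xbp1 (1.88 and −0.82) had the largest averaged differences, and Cebpg (0.16 and −1.13) and Nfe2l2 (0.98 and −1.90) the smallest. Among 9 amino acid transporters Slc7a5 (1.39 and 1.56), the light chain of a carrier of large neutral amino acids, was called higher. Slc7a3 differed by 2.48 and 0.39, Slc1a5 by −0.41 and −2.94 and Slc7a11 by 0.31 and −0.55. The median of the transporters was 1.39 in batch 1 and −0.03 in batch 2.

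The serine, glycine and one-carbon enzymes divided. Of 8 genes, Mthfd1l (2.23 and 2.12) and Shmt2 (1.05 and 1.65), which act in mitochondria, were called higher and Shmt1 (−1.79 and −2.36), the cytosolic counterpart of Shmt2, was called lower, while Psph, the last enzyme of serine synthesis, differed by −0.26 and −1.64. None of the 5 measured enzymes of proline, alanine and transsulfuration was called. There Pycr1 (2.44 and −0.48) and Gpt2 (0.58 and −0.32) had the largest averaged differences, and Got1 (−0.33 and −1.83) and Cth (0.64 and −0.78) the smallest.

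The 14 cytosolic aminoacyl-tRNA synthetases, which charge tRNAs with amino acids and are activated by ATF4 as a group, had the batch pattern of the members. In batch 1, 10 of 14 were at least 1 log2 unit higher in cKO, against 12.8% of all genes, and the median was 1.31 against 0.17. In batch 2 none was, against 5.35% of all genes, and the median was −0.04 against −0.19. Sars (2.27 and 0.90) and Cars (2.57 and 0.14) had the largest averaged differences, Hars differed by 0.27 and −1.06, and Wars, which is also induced by interferon, was called lower (−1.61 and −2.10). Among 10 measured other targets of ATF4 none was called, with Ndrg1 (2.20 and 0.75) and Stc2 (2.53 and 0.25) largest and Herpud1 (0.94 and −2.14) and Gadd45a (−0.04 and −1.11) smallest.

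Lists for neighbouring stress programmes were set beside these. Of 17 chaperones and degradation factors of the endoplasmic reticulum none was called, with medians of 0.39 and 0.21. Hsp90b1 (1.15 and 0.99) and Pdia4 (1.34 and 0.54) had the largest averaged differences, Sdf2l1 (−0.17 and −1.14) and Dnajb9 (0.24 and −0.89) the smallest. Of 7 mitochondrial chaperones and proteases Hspe1 was called lower (−1.13 and −1.46), Hspd1 differed by −0.41 and −1.89, and Lonp1 (2.05 and 0.62) and Hspa9 (0.65 and −0.49) had the largest averaged differences. Of 9 targets of p53 Ccng1 was called lower (−1.25 and −2.59), while Mdm2 (2.03 and −0.37), Cdkn1a (3.01 and −1.53) and Bax (−0.03 and −0.74) were not called. Of 9 genes that respond to hypoxia, 4 were called higher, Adm (3.98 and 2.10), Vegfa (2.98 and 1.88), Bnip3 (2.25 and 2.79) and Egln3 (2.01 and 1.86), and the medians were 2.01 and 1.03, while Pdk1 (0.54 and 0.39) and Ddit4 (1.22 and −0.02) were smallest. Of 9 immediate early genes Jun (1.23 and 1.39) was called higher and Junb (−1.0 and −2.49) and Zfp36 (−2.10 and −1.93) lower, and Fos differed by −0.50 and 3.15. These counts and medians are descriptions and not a test, and the lists were chosen with earlier results of these data known.

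The markers of the cell classes were compared between genotypes in the same way. Of 15 cardiomyocyte markers Ryr2 (1.37 and 2.15) was called higher and Tnni3 (−2.31 and −1.64) and Myl3 (−1.40 and −3.29) lower, and Atp2a2 differed by 0.96 and 2.31. Of the measured markers of other classes, 0 of 12 endothelial, 0 of 5 epicardial and 0 of 4 erythroid markers were called, and 1 of 9 mesenchymal markers was, Vcan (1.70 and 1.52), which cardiomyocytes of this stage also express. The endothelial markers averaged at most 1.99 in any CM-like cell.

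Across single cKO cells the levels of the members varied together. The mean pairwise Spearman rho over the 45 pairs was 0.29 in batch 1 and 0.28 in batch 2 (33 cells each), against 0.03 in each batch over all pairs of genes, and 42 and 39 pairs were positive. Every pair came from the same cells and libraries, so it also reflects what these share, such as depth and cell quality. The highest pairs, averaged over batches, were Asns with Psat1 (0.65), Psat1 with Phgdh (0.60) and Asns with Phgdh (0.59), all enzymes of amino acid synthesis, followed by Trib3 with Sesn2 (0.58), Atf4 with Chac1 (0.52) and Atf4 with Trib3 (0.50). The lowest were Atf5 with Sesn2 (0.00) and Phgdh with Vldlr (0.02). In these averages the enzymes paired most with each other, and Atf4 more with Chac1 and Trib3 than with Asns (0.34), Psat1 (0.23) or Phgdh (0.19). Single batches departed from this. In batch 2 the highest pair was Chac1 with Sesn2 (0.75), which had 0.14 in batch 1. In batch 2 Phgdh also had 0.45 with Trib3 and 0.43 with Asns.

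Control cells differed between batches here too. The mean pairwise rho was 0.03 over 19 cells of batch 1 and 0.62 over 10 cells of batch 2, where all pairs of genes averaged 0.06 in each. In batch 2 the 36 pairs without Atf5, which was 0 in all of these cells, were all positive. Averaged over both batches the mean was 0.33. It was 0.28 without the batch 2 cell in which 3805 genes were detected, and 0.38 without the 3 cells high in erythroid or epicardial markers. In batch 1 Trib3, Chac1 and Sesn2 were near 0 in nearly every control cell, which leaves little to rank in their pairs. Pairs of the enzymes, which more of these cells expressed, were low too. There rho was 0.16 for Asns with Psat1, 0.20 for Asns with Phgdh and −0.05 for Psat1 with Phgdh. The number of members at a TPM of at least 10 in a cell had a median of 3 and a range of 1 to 6 in control cells of batch 1, and 7 and 1 to 9 in batch 2. In cKO cells it was 5 with a range of 1 to 9 in batch 1 and 7 with a range of 1 to 10 in batch 2. At least 7 members were at that level in 0 of 19 and 6 of 10 control cells, and in 11 of 33 and 18 of 33 cKO cells.

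**Figure D4:**
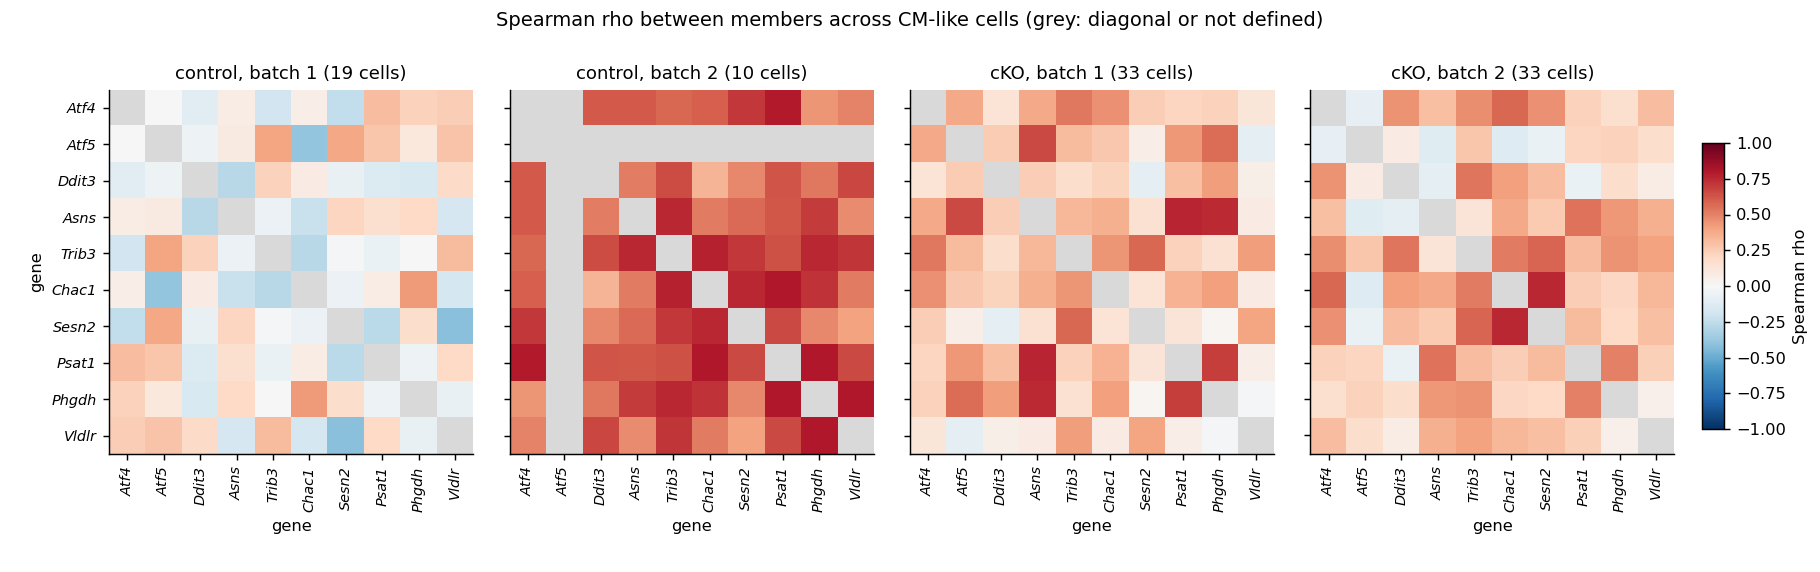
Spearman rho between each pair of members across CM-like cells (colour, from −1 to 1) in the 4 groups of genotype and batch; grey marks the diagonal and pairs with Atf5 where it was 0 in all cells. Pairs in both cKO batches are mostly positive with means of 0.29 and 0.28, those of control batch 2 average 0.62 and those of control batch 1 average 0.03.

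Technical measures went partly with the members. The rho of the members' mean with the number of detected genes was −0.03 and 0.35 in cKO cells of batch 1 and batch 2, and 0.66 and 0.04 in control cells. With the share of mitochondrial transcripts it was −0.56 and −0.38 in cKO and −0.28 and −0.35 in control cells. Given the number of detected genes, the mean pairwise partial rho was 0.30 and 0.25 in cKO cells. In cKO cells with under 10% mitochondrial transcripts the mean pairwise rho, averaged over batches, was 0.25 against 0.28 in all. Their part in the correlations was otherwise not tested.

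How closely a member followed the rest depended on the batch. The rho of Vldlr with the mean of the other 9 members in cKO cells was 0.11 in batch 1, the lowest of the members, and 0.40 in batch 2, where Atf5 (0.13), Ddit3 (0.38) and Psat1 (0.39) were below it. For Asns it was 0.72 and 0.43 and for Trib3 0.54 and 0.71. With the mean of the 9 hypoxia-responsive genes, an addition made after the values were seen, the rho of Vldlr was 0.43 and 0.54, the highest of the members in each batch. The other members ranged from −0.05 to 0.32 in batch 1 and from 0.17 to 0.44 in batch 2. The mean of all 10 members, Vldlr included, had a rho of 0.20 with these genes in batch 1 and of 0.66 in batch 2, which was above that of Vldlr.

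The genes most like the members' mean across cKO CM-like cells belonged largely to the lists described above. Of 5918 genes at a TPM of at least 1 in at least 50% of these cells, the highest mean rho over batches outside the members was that of Eif4ebp1 (0.72), which encodes a repressor of translation, then Slc3a2 (0.70), the heavy chain that partners Slc7a5, and Mthfd2 (0.69), a mitochondrial one-carbon enzyme. Next came the tRNA synthetases Gars (0.67), Tars (0.65), Iars (0.61) and Nars (0.61), then the mitochondrial chaperone Hspa9 (0.57), Gapdh of glycolysis (0.57), the only one of the 10 in none of the lists, and Lars (0.57). The median rho over the 5918 genes was 0.09. All 14 tRNA synthetases had a median of 0.53, whereas 14 chaperones and degradation factors of the endoplasmic reticulum had a median of −0.01 and the 15 cardiomyocyte markers of −0.02. Of these 10 genes 6 had a promoter window, and Gars, Tars and Iars held the TGATGNAA core.

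**Figure D5:**
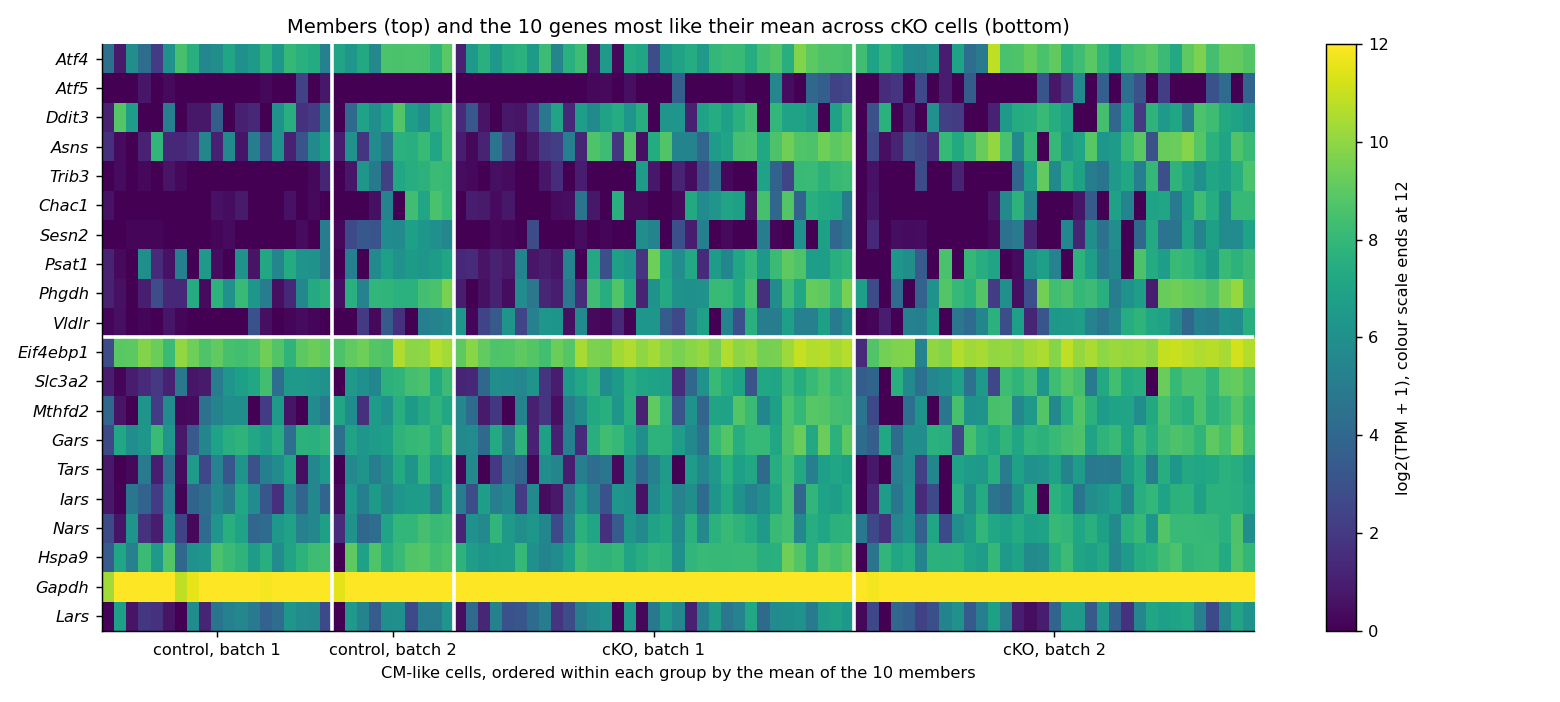
Level, log2(TPM + 1) by colour, of the 10 members (upper rows) and the 10 genes most like their mean across cKO cells (lower rows) in the 95 CM-like cells, in 4 blocks of genotype and batch and ordered within each by the mean of the members. Cells to the right of the cKO blocks and of the control block of batch 2 hold high levels of most members and of the lower genes together, and Trib3, Chac1 and Sesn2 are dark across nearly all control cells of batch 1.

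These genes, too, were set against genotype and batch. Between genotypes Slc3a2 differed by 1.90 in batch 1 and −0.01 in batch 2, Mthfd2 by 2.43 and 0.02, Nars by 1.83 and 0.23 and Iars by 1.46 and −0.01. Between control cells of the batches Mthfd2 was 3.12 and Slc3a2 2.61 higher in batch 2, and Gapdh 0.24. Since these 10 were chosen for their likeness in cKO cells, that likeness is a description.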

How the data were processed

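Single cells were dissociated with trypsin and collagenase, picked by hand and sequenced by Smart-seq2. The authors quantified transcripts with Salmon on mm10 and deposited TPM per gene. The Salmon version and the annotation release are not given in the sources used here. The authors kept cells that mapped well and whose reporter fitted their genotype. Of 170 labelled samples 143 had a column; the other 27 were not analysed here. Sums of TPM per cell ranged from 996133 to 999999, so read depth is unknown, and without molecular identifiers intervals and limits cover counting error only. TPM also depends on all other transcripts of a cell.

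Values were analysed as log2(TPM + 1), which understates changes of low genes, for genes above 0 in more than 10 CM-like cells (Python 3.11.15, numpy 2.4.6, pandas 2.3.3, scipy 1.17.1). Cells were clustered by Ward linkage on z-scored markers into 5 clusters. A cluster was named for the class with the largest share of markers at least 1 log2 unit above other cells and reaching a TPM of 1 in a majority of the cluster, with at least 3 such markers and no other class leading its top 10 genes. No doublet caller was run on hand-picked cells. Differences were taken within batches and averaged with equal weight. A self-check recovered constant shifts added to values resampled from cKO cells, which checks the calculation only. Shares have exact Clopper-Pearson 95% intervals, and a count of 0 allows 3 cells of the total. Named genes were the members, for each other list its called genes and the 2 largest and 2 smallest averaged differences, the eIF2α kinases and Ppp1r15 subunits, and the 10 genes most like the members' mean. The members and the 17 other lists were chosen with earlier results of these data known, so their patterns are no independent support. Alternatives were other pseudocounts, scales, filters, clusterings and cell selections.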

Additional observations from a re-analysis of the deposited data

Results flagged for a closer look

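Single cells that stood far from the others of their group, by Dixon's ratio in groups of 4 to 10 cells of 1 class, genotype and batch, were found in 21 of 53 sets of values. The limit is set so that chance flags about 1 in 20 groups of normally distributed values, and the sets share cells. Many values here are 0, so that rate does not hold. Where all other cells are at 0, any value above 0 is flagged. In control CM-like cells of batch 2, a single cell was lowest in both, with Ddit3 at 0.00 and Phgdh at 0.48. In unnamed control cells of batch 1, the same cell, 1 of 5, was the highest in each of the following, with Ddit3 at 3.86, Asns at 6.06, Trib3 at 4.88, Chac1 at 6.72, Sesn2 at 5.51, Psat1 at 7.92, Phgdh at 9.58 and a mean of all members of 5.24, where the next had 0.78. Mitochondrial transcripts made up 4.32% of this cell and at least 50.7% of each of the other 4, and another of the 5 cells was highest in Atf5, at 0.21. Among epicardial-like control cells of batch 1, 1 of 4 cells was highest in Atf5, at 2.21. Another was highest in Trib3, at 0.33, and Chac1, at 0.41, and lowest in Asns, at 0.84, Psat1, at 0.43, and Phgdh, at 0.88. In batch 2 of that class 1 cell had Ddit3 at 0.00 and another had Vldlr at 3.01, with the other 8 cells at 0 for Vldlr. Among endothelial-like control cells of batch 1, 1 of 7 cells was highest in Trib3, at 0.92, and another in Chac1, at 3.54. The cause of these values was not tested.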

How the results depend on the processing

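No paired analysis was possible because no result reported here came from a test; the first number in a cell's title recurs in both genotypes, and the labels do not say what it marks. The median difference of the members, 0.60 averaged over batches, lay between 0.38 (pseudocount 10) and 1.17 (log2 ratio of mean TPM) under every alternative. These stayed within the spread of the batches, taken as the difference between batches divided by the square root of 2. That spread was wide, since the median difference was 1.82 in batch 1 and −0.36 in batch 2. The number of members called higher was 1 of 10, where 419 of 15142 genes were. By the log2 ratio of mean TPM it was 2 of 9 (Asns and Vldlr), where 1702 of 15142 genes were. With cells of both batches pooled, where 1 log2 unit in the pooled cells sufficed, it was 4 of 10, against 1060 of 15142 genes. With 4 clusters, which joined the unnamed cluster led by mitochondrial transcripts to the CM-like class, it was 3 of 10, against 815 of 15317 genes. The mean pairwise rho in cKO cells, 0.28, was 0.25 with mitochondrial transcripts under 10% and 0.29 with batches pooled. In control cells, 0.33, it was between 0.28 and 0.41. Leaving out each control CM-like cell of batch 2 in turn, added after seeing the data, gave a median difference of 0.43 to 0.74, 1 member called each time, and a control rho of 0.28 to 0.36. Also added then were centring on the median of all genes (0.61) and leaving out cells high in markers of other classes (0.76). Of 235 single-member differences, 228 moved by less than the member's own spread of the batches. Where the batches disagreed, that spread allows even a change of sign, so this count says little about stability. The averaged difference changed sign under 3 alternatives for Ddit3, 2 for Sesn2 and 1 for Trib3. The log2 ratio of mean TPM gave no value for Atf5, which was 0 in all control cells of batch 2. With 10 such cells, and depth unknown, batch 2 limits what can be said of control levels.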
